A study of Homo sapiens with 12 samples.

Results

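Lamina-associated domains (LADs) are stretches of chromatin that touch the protein meshwork under the inner nuclear membrane. They are typically poor in genes, replicate late, and hold DNA that is mostly silent in the cell type studied. Part of them is common to most cell types, while other LADs detach or attach as cells change state, and the genes in them then gain or lose a repressive neighbourhood. The regions described here are the mid-size LADs of primed human embryonic stem cells, that is, the autosomal intervals of the primed LAD list that are 100 to 990 kb long. They number 710 of 5268 autosomal primed LADs (5671 with X included), and they were chosen by their length in the primed list alone. For each of them the second list, from naive cells, gives how much of the interval was also at the lamina, and in what pieces.

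Both lists come from H9, an established human embryonic stem cell line, kept untreated as primed cells in mTeSR or as naive cells in RSeT. Lamina contact was mapped by pA-DamID, in which an antibody against lamin B1 (LMNB1) brings a protein A-Dam methylase fusion to the lamina, where it methylates nearby GATC sites. The labels name 3 LMNB1-dam and 3 Dam-only libraries per state, 12 in all, and Dam-only libraries record where untethered enzyme reaches. Each deposited list is 1 merged set of intervals per state without replicates, scores or depth, so differences between the states are values of these lists, were not tested, and carry no p-value. The primed and naive labels could not be checked against marker genes, since the intervals hold no expression. All LADs are runs of 10 kb windows. The exact binomial (Clopper-Pearson) 95% intervals given below treat LADs, edges, genes or windows as independent, cover counting error only, and say nothing of replicate error.

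The sequences the results turn on are the starts of genes in these LADs and the microRNAs they hold, taken from RefSeq (GRCh38.p14). Promoters are shown because starts that were outside naive LADs had more CG dinucleotides, as described further on. Each run is the 250 bases upstream of the listed start, 5' to 3' on the gene's strand, with CG dinucleotides in capitals, and the 4 genes were chosen after their values were seen. BMP4 (chr14:53955051-53955300, minus strand, 25 CG), which encodes a bone morphogenetic protein that patterns the early embryo, and MNAT1 (chr14:60734511-60734760, plus strand, 10 CG), a subunit of the CDK-activating kinase, start in mid-size primed LADs and outside naive LADs. IFNB1 (chr9:21077943-21078192, minus strand, 0 CG), the fibroblast interferon, and SLC8A1 (chr2:40512436-40512685, minus strand, 4 CG), a sodium-calcium exchanger of heart muscle, start in LADs of both lists.
BMP4: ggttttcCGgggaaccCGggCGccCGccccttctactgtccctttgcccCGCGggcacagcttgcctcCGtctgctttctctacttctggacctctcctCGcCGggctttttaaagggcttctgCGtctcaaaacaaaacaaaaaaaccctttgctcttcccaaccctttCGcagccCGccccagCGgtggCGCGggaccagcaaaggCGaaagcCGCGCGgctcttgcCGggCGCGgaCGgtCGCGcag
MNAT1: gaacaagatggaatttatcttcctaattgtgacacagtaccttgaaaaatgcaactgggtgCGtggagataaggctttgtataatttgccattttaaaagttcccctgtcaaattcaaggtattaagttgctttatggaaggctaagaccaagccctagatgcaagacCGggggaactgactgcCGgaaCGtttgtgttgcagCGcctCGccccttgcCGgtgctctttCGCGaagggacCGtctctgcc
IFNB1: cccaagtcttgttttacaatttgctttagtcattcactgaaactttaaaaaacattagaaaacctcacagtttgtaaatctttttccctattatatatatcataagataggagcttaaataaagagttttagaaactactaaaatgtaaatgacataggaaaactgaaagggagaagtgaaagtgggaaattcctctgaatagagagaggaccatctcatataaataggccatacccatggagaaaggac
SLC8A1: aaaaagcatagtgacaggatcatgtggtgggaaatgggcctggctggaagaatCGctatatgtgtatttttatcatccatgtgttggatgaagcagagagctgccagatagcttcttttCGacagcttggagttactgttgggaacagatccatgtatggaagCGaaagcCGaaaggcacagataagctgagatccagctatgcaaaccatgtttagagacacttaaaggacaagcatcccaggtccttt

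MicroRNAs are short RNAs that lower the output of messenger RNAs paired with their seed, bases 2 to 8. Of 1461 autosomal hairpins in the RefSeq table, 52 (3.56%) lay wholly in mid-size primed LADs, and 47 of these 52 also lay in naive LADs. Of all hairpins 18.1% lay in naive LADs, but so did 92.8% of the bases of mid-size primed LADs. The 47 are therefore no sign of a property of these hairpins. The other 5 are shown, with 2 well-known microRNAs that were in LADs of both lists, chosen after their values were seen, and the seed is in capitals. MIR1297 (chromosome 13), MIR3942 (chromosome 15), MIR4785 (chromosome 2), MIR4759 (chromosome 21) and MIR3977 (chromosome 5) lay in gaps or edges without naive coverage, in LADs covered at 62.7%, 64.7%, 93.4%, 81.1% and 77.8% in naive. MIR31, which lies beside the interferon genes of chromosome 9, and MIR204, a microRNA of the retina, lay in LADs covered at 98.7% and 100%.
hsa-miR-1297: uUCAAGUAauucaggug
hsa-miR-3942-3p: uUUCAGAUaacaguauuacau
hsa-miR-3942-5p: aAGCAAUAcuguuaccugaaau
hsa-miR-4785: aGAGUCGGcgacgccgccagc
hsa-miR-4759: uAGGACUAgauguuggaauua
hsa-miR-3977: gUGCUUCAucguaauuaaccuua
hsa-miR-31-5p: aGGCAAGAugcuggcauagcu
hsa-miR-204-5p: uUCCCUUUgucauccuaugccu
These 8 arms have 8 different seeds. Among the 69 mature arms of the 52 hairpins only 2 seeds occurred more than once: CUGUGAU, from the pair of miR-4679 genes that lie on opposite strands of the same place on chromosome 10, and GAGGGAG, in miR-4510 (chromosome 15) and miR-6130 (chromosome 21).

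Mid-size LADs covered 236 Mb, or 19.0% of the autosomal primed LAD bases, against 73.9% in the 336 LADs of 1 Mb or longer and 7.13% in the 4222 LADs of 10 to 90 kb. Their median length was 235 kb, with quartiles of 140 and 480 kb. By length, 296 measured 100 to 190 kb, 246 measured 200 to 490 kb and 168 measured 500 to 990 kb. Few stood alone. The nearest other primed LAD lay within 50 kb for 706 of the 710 (99.4%, 98.6% to 99.8%), against 89.5% of autosomal primed LADs of all lengths. This was not particular to mid-size LADs, with 97.5% at 20 to 90 kb, 98.2% at 1 Mb or longer and 79.4% at 10 kb. For 654 (92.1%) it was 10 kb away, the smallest distance the windows allow, against 64.8% at all lengths and 89.6% at 1 Mb or longer. Joining primed LADs across distances under 50 kb placed 576 of the 710 (81.1%, 78.1% to 83.9%) in a domain of 1 Mb or longer. The share was 47.5% of autosomal primed LADs of all lengths and 50.8% at 20 to 90 kb. The median domain that held a mid-size LAD was 3125 kb. Most mid-size LADs were thus segments of a longer lamina-associated stretch with narrow primed gaps on either side. Counting only primed LADs of 100 kb or longer as neighbours, 510 (71.8%) still had one within 50 kb, near the 72.9% of LADs of 1 Mb or longer.

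The share of primed LAD bases that sat in mid-size LADs differed widely between chromosomes. Chromosome 21 stood apart, with 27 mid-size LADs that held 74.1% of its primed LAD bases and only 1 LAD of 1 Mb or longer. Chromosome 15 followed at 34.6% and chromosome 20 at 28.2%. At the other end were chromosome 18 with 12.1%, chromosome 16 with 13.0%, chromosome 11 with 13.3% and chromosome 4 with 14.2%. Chromosomes 19 and 22 had none. The largest numbers were on chromosomes 2 (61), 3 (60), 1 (59) and 4 (56).

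Nearly all mid-size primed LADs were also at the lamina in the naive list. At least 50% of the length lay in naive LADs for 676 of 710 (95.2%, 93.4% to 96.7%), against 72.7% of autosomal primed LADs of all lengths. Naive LADs covered 47.5% of all autosomal windows. The median covered share was 97.8% (quartiles 90% and 100%), 313 LADs were covered completely, and 3 had no naive overlap. Coverage went up with length, from 87.0% of the bases at 100 to 190 kb to 91.8% at 200 to 490 kb and 95.4% at 500 to 990 kb. Outside the range, the bases of primed LADs of 10 to 90 kb were covered at 71.7% and those of 1 Mb or longer at 97.5%. At the limits of the range, the 40 primed LADs of 90 kb had 86.1% of their bases in naive LADs and the 52 of 100 kb had 81.0%. The 4 of 990 kb had 86.1% and the 2 of 1000 kb had 94.0%.

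**Figure D1:**
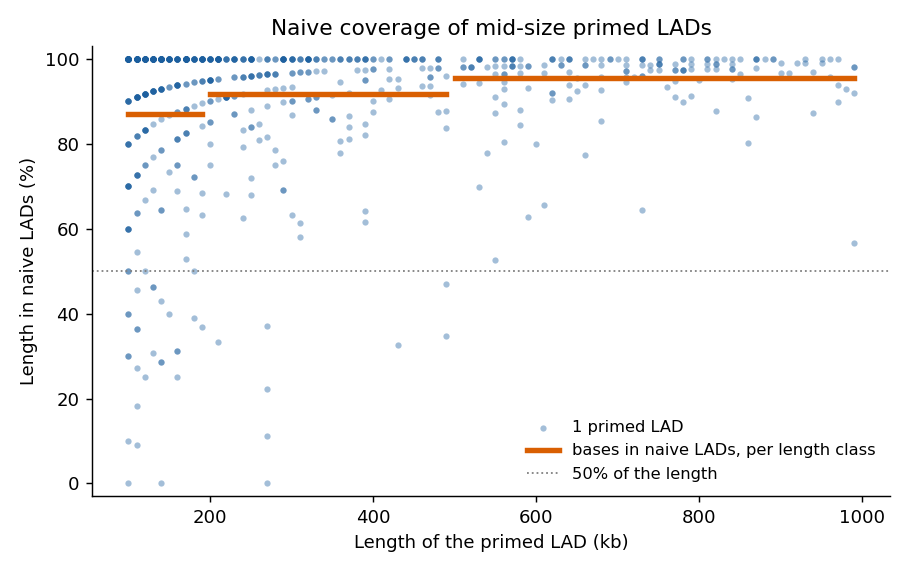
Each point is 1 of the 710 mid-size primed LADs, with its length in kb on the x axis and the percentage of that length in naive LADs on the y axis; orange bars give the share of bases in naive LADs for 3 length classes (87.0%, 91.8% and 95.4%). Most points lie near 100%, and those under the dotted line at 50% are mostly among the shorter LADs.

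What changed between the lists was how these stretches were bounded. Of the 710, 294 (41.4%, 37.8% to 45.1%) lay inside 1 naive LAD longer than themselves, against 47.9% of autosomal primed LADs of all lengths. A further 19 had exactly the start and end of a naive LAD. The share inside a larger naive LAD went down with length, from 50% (44.2% to 55.8%) at 100 to 190 kb to 40.7% (34.5% to 47.1%) at 200 to 490 kb and 27.4% (20.8% to 34.8%) at 500 to 990 kb, and it was 8.33% at 1 Mb or longer. Another arrangement, a primed LAD overlapped by 2 or more naive LADs, went up over the same classes, from 37.8% to 46.3% to 61.9%. Mid-size LADs were thus the range in which joining in naive and splitting in naive were both common. A longer LAD has more windows in which a naive gap can fall, so these shares do not give a rate of gaps per window. These shares depend on single windows. With naive LADs less than 20 kb apart joined, which closes gaps of 1 window, 67.5% of the mid-size LADs lay inside a larger naive LAD, and with those less than 50 kb apart joined, 87.0% did.

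**Figure D2:**
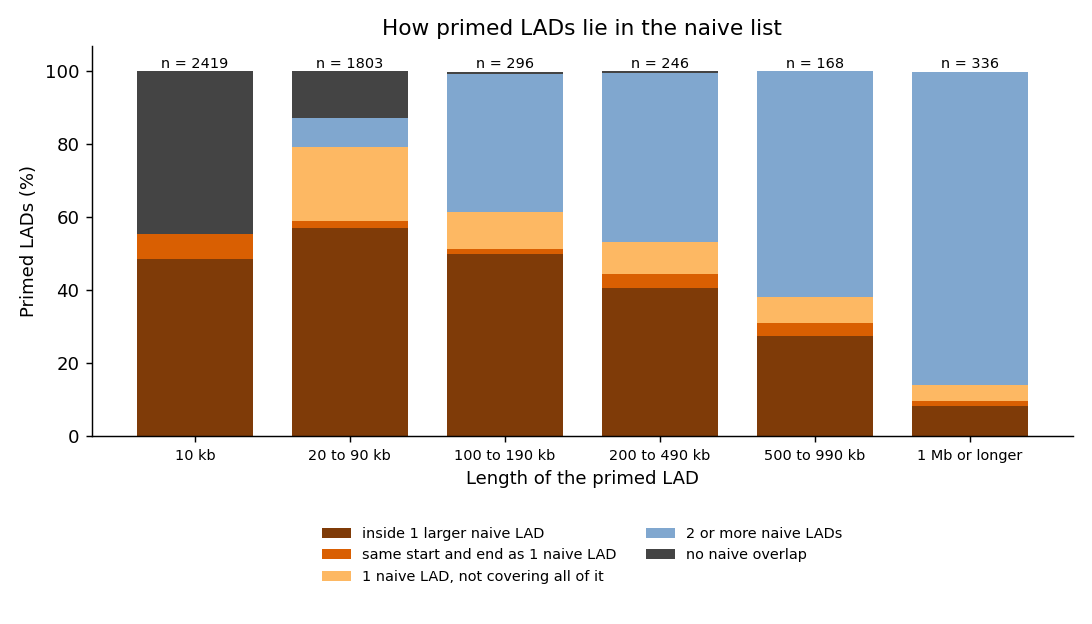
Stacked bars give, for 6 length classes of autosomal primed LADs (x axis, with the number of LADs above each bar), the percentage that fall into each of 5 relations to the naive list (y axis). From the class of 20 to 90 kb rightward the share inside 1 larger naive LAD falls from 57.1% to 8.33% and the share overlapped by 2 or more naive LADs grows.

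The 294 engulfed LADs lay in 215 naive LADs with a median length of 610 kb (quartiles 310 and 1205 kb, longest 4640 kb). Of these 215, 190 (88.4%) also overlapped another primed LAD, 91 touched 2 or more mid-size ones, and 58 touched a primed LAD of 1 Mb or longer. The median number of primed LADs in such a naive LAD was 3 and the highest was 26. Most of these naive LADs thus joined a mid-size LAD with a primed neighbour, and at the median 91.9% of their length was primed LAD already. The 88.4% was largely set by the choice of these naive LADs. They are longer than the mid-size LAD by definition, and 92.1% of mid-size LADs had another primed LAD 10 kb away. Gaps of 10 kb beside mid-size LADs were filled in naive at 566 of 827 places (68.4%, 65.2% to 71.6%), gaps of 20 to 40 kb at 110 of 268 (41.0%, 35.1% to 47.2%), gaps of 50 to 90 kb at 14 of 55 (25.5%) and wider ones at 1 of 64 (1.56%). Beside LADs of 1 Mb or longer the 10 kb gaps were filled at 222 of 398 places (55.8%, 50.7% to 60.7%) and the 20 to 40 kb gaps at 28 of 115 (24.3%, 16.8% to 33.2%), and beside LADs of 10 to 90 kb at 67.5% and 45.0%.

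At the edges themselves, the outermost naive LAD that overlapped a mid-size LAD reached further out at 853 of 1414 edges (60.3%, 57.7% to 62.9%), ended on the same window at 331 (23.4%, 21.2% to 25.7%) and ended short of it at 230 (16.3%, 14.4% to 18.3%). These shares depend on narrow naive gaps: with naive LADs under 50 kb apart joined they were 90.1%, 3.54% and 6.36%. Outward shifts were long, with a median of 120 kb (quartiles 30 and 440 kb), and 96 exceeded 1 Mb. Inward shifts were short, with a median of 10 kb, and 139 of the 230 were a single window. Both edges reached outward in 299 of the 707 LADs with naive overlap (42.3%), both retreated in 38 (5.37%), and both ended on the same window in 47 (6.65%). Of the 853 outward naive ends, 146 (17.1%) fell on the same window as the end of another primed LAD. A further 258 (30.2%) fell 1 window from the end of a primed LAD. These 258 include the 108 outward shifts of a single window, which lie beside the end of the mid-size LAD itself. The 30.2% is thus not a share of ends near another primed LAD. Of all autosomal naive LAD ends, 9.92% and 11.4% fell on or 1 window from the end of any primed LAD. Another 281 (32.9%) lay inside another primed LAD, near the 28.1% of all naive ends. The other 168 (19.7%) lay in DNA free of primed LADs, against 50.5% of all naive ends. The 108 shifts of a single window also ended in such DNA but are not counted in the 168.

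The window just outside a mid-size LAD is free of primed LADs by the rule, which bears on every outward shift, so the same measures are given with the lists exchanged. Of 1631 naive LADs of 100 to 990 kb, 814 (49.9%, 47.5% to 52.4%) lay inside a larger primed LAD, and the primed LAD reached further out at 64.5% of 2972 edges, so reaching outward was no rarer in that direction. Outward shifts there had a median of 610 kb and inward shifts of 20 kb, so long outward shifts were not particular to naive LADs. An inward shift cannot exceed the length of the LAD itself, whereas an outward shift has no such limit. The directions differed in coverage, with 92.8% of the bases of mid-size primed LADs in naive LADs but 84.8% of the bases of mid-size naive LADs in primed LADs. No primed overlap at all was found for 145 of the 1631 naive LADs, against 3 of the 710 primed ones without naive overlap.

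**Figure D3:**
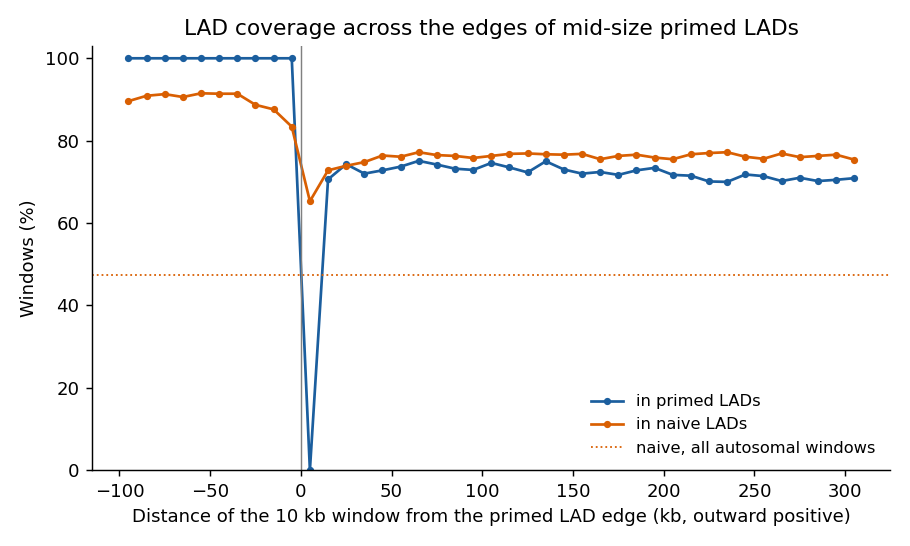
The percentage of 10 kb windows in primed (blue) and naive (orange) LADs is plotted against distance in kb from the 1420 edges of mid-size primed LADs, negative inside and positive outside; the dotted line is the naive share of all autosomal windows, 47.5%. Naive coverage is 83.4% in the last window inside and 65.3% in the first window outside, where primed coverage is 0% by construction, and both lists return to between 70.0% and 77.2% from the next 2 windows outward.

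Only 16.9 Mb of the 236 Mb were primed only. Of these bases, 68.5% (11.6 Mb) were interior gaps in naive coverage, 28.5% (4.83 Mb) were strips at an edge, and 3.01% (510 kb) belonged to the 3 LADs without overlap. The 799 interior gaps had a median of 10 kb, and 607 of them (76.0%) were single windows. The longest gap was 210 kb.

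Chromosomes also differed in how naive LADs held these regions. On chromosome 7, 29 of 50 mid-size LADs (58.0%) lay inside a larger naive LAD, and on chromosome 2, 33 of 61 (54.1%). On chromosomes 4, 14, 15 and 21 the counts were 9 of 56 (16.1%), 5 of 33 (15.2%), 3 of 19 (15.8%) and 4 of 27 (14.8%). Base coverage in naive was lowest on chromosome 14 (82.2%) and chromosome 4 (86.7%) and highest on chromosome 18 (97.4%). Chromosomes 2 and 8, with 61 and 52 mid-size LADs, had none under 50% covered, whereas chromosome 4 had 6 and chromosomes 1 and 6 had 5 each.

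The 34 mid-size LADs with under 50% of their length in naive LADs (27.3% of autosomal primed LADs of all lengths were under 50%) were short, with a median of 140 kb. They held 7.30 protein-coding gene midpoints per Mb, from 44 midpoints in 6.03 Mb. No gene had at least 50% of its body in 19 of the 34 (55.9%), although some of these lay within longer genes. A single LAD of olfactory receptors on chromosome 1 had 16 genes, so the rate rests in part on that LAD. Mid-size LADs covered at 50% to under 90% held 3.69 per Mb, those at 90% to under 100% held 3.42, and those fully covered held 2.57. Of the 34, 18 (52.9%) fell in a joined primed domain of 1 Mb or longer, compared with 81.1% of all mid-size LADs. After naive LADs were joined across distances under 50 kb, 13 of the 34 stayed under 50%, and the 3 without overlap stayed at 0%. With naive LADs under 50 kb left out, the number under 50% was 73.

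The longest of those 3 was 270 kb on chromosome 14 (hg38, 60720001 to 60990000). It held the whole of MNAT1, whose promoter is shown above, and TRMT5, a tRNA methyltransferase gene, and 29.4% of the homeobox gene SIX4. The next, 140 kb on chromosome 6 (88570001 to 88710000), overlapped 28.3% of RNGTT, which encodes the mRNA capping enzyme and was at 0% in naive over its whole length. On chromosome 11, a LAD of 100 kb (27370001 to 27470000) held 93.6% of LGR4, a receptor for R-spondins, the secreted enhancers of WNT signalling, and LGR4 was covered at 0% in naive. None of the 3 had a naive LAD on any of its windows.

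Low naive coverage was also found for a pair on chromosome 1, 110 kb (50810001 to 50920000) at 9.09% and 100 kb (49670001 to 49770000) at 10%, lying in FAF1 and in AGBL4, a tubulin carboxypeptidase gene. Of the 1501 kb body of AGBL4, 81.5% lay in primed LADs of any length, 55.5% in mid-size ones and 66.2% in naive LADs. Mid-size LADs within its body ranged from 10% to 100% in naive. A LAD of 270 kb on chromosome 13 (36030001 to 36300000), covered at 22.2% in 5 naive pieces, held SOHLH2, a transcription factor gene of germ cells, and CCDC169, both at 0% in naive. FRG1, at 0% in naive, filled part of a LAD of 160 kb (189810001 to 189970000, 25%) near the end of the long arm of chromosome 4. FRG1 has related copies elsewhere in the genome, and the sources used here do not say how reads from such copies were assigned. A LAD of 120 kb on chromosome 6 (90080001 to 90200000, 25%) lay in BACH2, a lymphocyte transcription factor gene.

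Weakly covered LADs came in runs at some places. On chromosome 6, the 2260 kb from 87940001 to 90200000 held 4 mid-size LADs, all under 50% in naive. Over this stretch primed LADs covered 39.4% (890 kb in 15 LADs) and naive LADs 8.41% (190 kb in 13 pieces). It held SPACA1, a gene of the sperm acrosome covered at 100% in primed and 0% in naive, and it also took in RNGTT and part of BACH2, described above. On chromosome 1, 1470 kb (49450001 to 50920000) held 5 mid-size LADs, 3 of them under 50%, with 68.0% primed and 34.7% naive coverage. On chromosome 15, 320 kb within SCAPER (76370001 to 76690000) was covered at 96.9% and 34.4%, and on chromosome 5, 590 kb (82880001 to 83470000) around XRCC4, a DNA repair gene, at 93.2% and 54.2%.

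At the other extreme were mid-size LADs that were a small part of a very long naive LAD. A pair of 370 kb each on chromosome 1 (242210001 to 242580000 and 242590001 to 242960000) lay in 1 naive LAD of 4640 kb, which exceeded each by 4270 kb. The first held 71.6% of PLD5. Another pair on chromosome 1, 320 kb (184710001 to 185030000) with NIBAN1 and 69.4% of EDEM3, and 160 kb (185140001 to 185300000) with SWT1, lay in a naive LAD of 3940 kb. On chromosome 7, LADs of 120 and 100 kb (111760001 to 111880000 and 111890001 to 111990000) within DOCK4, a guanine nucleotide exchange factor gene, lay in a naive LAD of 3700 kb. On chromosome 20, LADs of 120, 300 and 250 kb lay in 1 naive LAD of 2990 kb (13790001 to 16780000) that runs through MACROD2. On chromosome 2, a LAD of 170 kb (191040001 to 191210000) with 91.5% of STAT4, which encodes a transducer of interleukin-12 signals, lay in a naive LAD of 3000 kb. These 10 regions fell in only 5 naive LADs, and primed LADs already covered 84.0% to 97.3% of the length of each. The joined primed domain was shorter than the naive LAD for the pair in the naive LAD of 4640 kb (1020 kb). For the other regions it was longer.

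Exact agreement of both ends was found up to 840 kb. The longest of the 19 identical LADs was on chromosome 2 (39780001 to 40620000) and held SLC8A1. Chromosome 6 had the next pair, of which the LAD of 830 kb (99620001 to 100450000) held MCHR2 and 81.3% of SIM1, a hypothalamic regulator. The other, of 780 kb (83980001 to 84760000), held MRAP2, CEP162 and 85.7% of TBX18. DMRTA1 lay in the identical LAD of 730 kb on chromosome 9 (22020001 to 22750000), and no coding gene lay in that of 710 kb on chromosome 13 (86270001 to 86980000). TSPAN8 and LGR5, a stem cell receptor for R-spondins, shared the one of 530 kb on chromosome 12 (71100001 to 71630000). LGR5 and SLC8A1 were covered at 100% in both lists, whereas LGR4, a relative of LGR5, was in the primed list only.

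The mid-size LADs farthest from any other primed LAD were still no more than 80 kb from one. At 80 kb was a LAD of 180 kb on chromosome 1 (48290001 to 48470000) with 85.4% of SPATA6, covered at 50% in naive. A LAD of 130 kb on chromosome 7 (143440001 to 143570000) was 70 kb from its neighbour, held the bitter taste receptor genes TAS2R41 and TAS2R60, and was fully inside a naive LAD of 140 kb. LADs of 120 kb on chromosome 4 (17660001 to 17780000, with FAM184B) and 490 kb on chromosome 10 (94640001 to 95130000) followed at 60 kb, then 200 kb on chromosome 5 (115320001 to 115520000) and 140 kb on chromosome 3 (27510001 to 27650000) at 50 kb, both fully covered. The one on chromosome 10 was the longest of these 6 and the least covered, at 34.7% in 12 naive pieces of at most 30 kb. It holds genes of drug-oxidising liver enzymes, with CYP2C19 at 24.6%, CYP2C18 at 49.9% and CYP2C8 at 59.6% in naive and all 3 at 100% in primed. These genes are close relatives of each other, so shared reads make the pattern of small naive pieces uncertain.

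**Figure D4:**
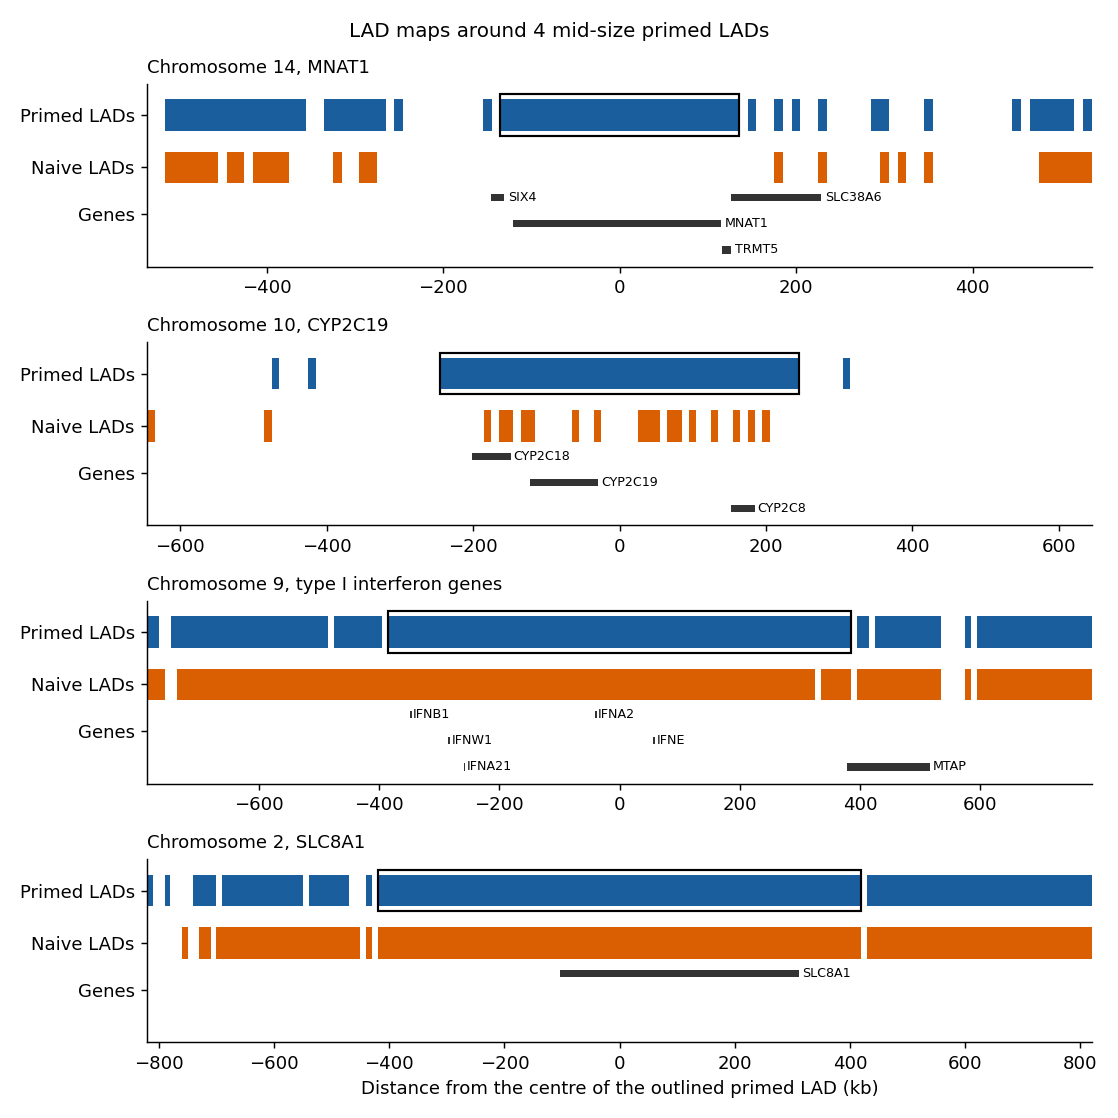
Primed LADs (blue), naive LADs (orange) and selected genes (black) are drawn to scale against distance in kb from the centre of an outlined mid-size primed LAD in 4 places. MNAT1 has no naive LAD under it, the CYP2C19 LAD is broken into 12 naive pieces, the interferon LAD is covered at 98.7% by 2 naive LADs, and the SLC8A1 LAD has the same ends in both lists.

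Mid-size LADs held 756 protein-coding genes with at least 50% of the gene body inside, 3.95% of the 19122 autosomal ones. Of these, 678 (89.7%, 87.3% to 91.8%) were also in naive LADs, against 18.7% of all autosomal protein-coding genes, and 78 (10.3%) were not, against 10.9% of the genes in primed LADs of any length. The corresponding share not in naive was 5.38% for genes in LADs of 1 Mb or longer and 38.3% for those in LADs of 10 to 90 kb. Gene density was 3.23 midpoints per Mb, between 2.25 in LADs of 1 Mb or longer and 5.43 in those of 10 to 90 kb, and below the 6.65 of the autosomes. No gene had at least 50% of its body in 362 of the 710 (51.0%), while 212 (29.9%) were touched by no coding gene at all. By the 50% rule 205 held 1 gene, 25 held 5 or more, and the most in a LAD was 21.

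Windows without naive coverage in and beside mid-size LADs held gene starts at a higher rate than covered ones, although the interval for single-window gaps reached into that of covered windows. Within mid-size LADs a protein-coding gene start lay in 2.28% (2.08% to 2.50%) of the windows that were in naive LADs. It lay in 3.84% (2.42% to 5.76%) of single-window interior naive gaps, 6.04% (4.17% to 8.42%) of windows in longer interior gaps, and 6.71% (4.69% to 9.25%) of naive-free windows at an edge or in a LAD without overlap. The same contrast held in the 10 kb primed gaps beside them, where 17 of 534 gaps that naive LADs filled (3.18%, 1.87% to 5.05%) and 30 of 244 gaps free in both lists (12.3%, 8.45% to 17.1%) held a gene start. All autosomal windows stood at 4.97%. Chromosome 8 was not analysed here in these counts.

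**Figure D5:**
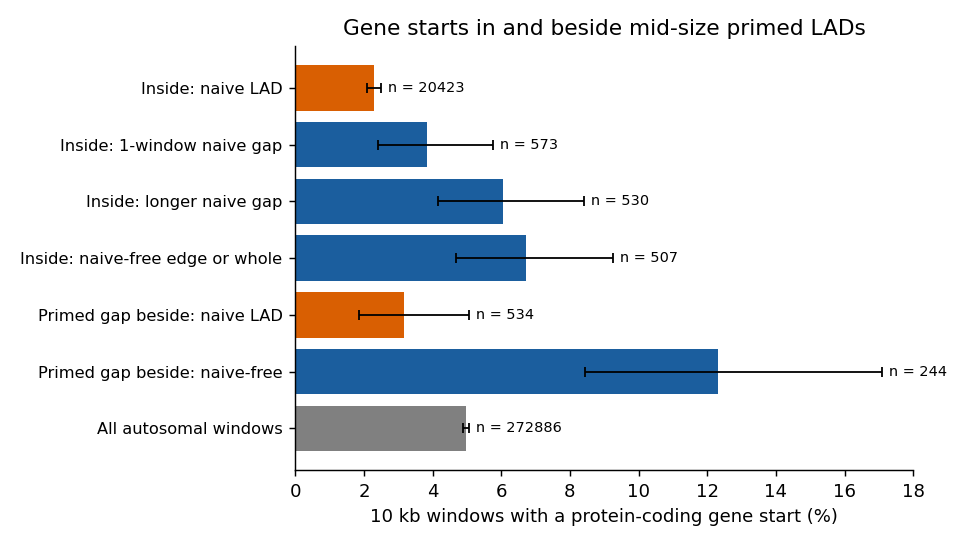
Bars give the percentage of 10 kb windows that hold a protein-coding gene start, with exact binomial 95% intervals and the number of windows, for windows inside mid-size primed LADs, for 10 kb primed gaps beside them and for all autosomal windows. Orange marks windows in naive LADs and blue marks naive-free windows; the highest bar is 12.3%, for gaps free in both lists.

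Promoters showed the same division as a group, though not every sequence above follows it. Outside naive LADs, BMP4 had a GC content of 63.6% in the bases shown and MNAT1 47.6%. In naive LADs, SLC8A1 had 44.8% and IFNB1 32.4%. RefSeq promoter sequences (GRCh38.p14, 250 bases before to 50 after a start) were matched for 15100 autosomal protein-coding genes, and 587 of these had their start in a mid-size LAD, of which 491 (83.6%) were in naive LADs as well. Chromosome 8 was not analysed here in these counts either. A promoter is called CpG-rich here when its GC content is above 55% and its observed over expected CG ratio above 0.6. Of 491 promoters whose start was also in a naive LAD, 179 (36.5%) were CpG-rich, with a median GC content of 50%. Of the 96 whose start was not in a naive LAD, 67 (69.8%) were CpG-rich, with a median of 63.5%. Promoters outside all primed LADs stood at 62.7% and 63.7%, and those in LADs of 1 Mb or longer at 45.4% and 56.0%. The motif GATC, the site that Dam methylates, which reads the same on both strands, was present in 46.0% of the promoters in mid-size LADs and 39.5% of all promoters. It was present in 46.2% of those with a naive start and 44.8% of those without.

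The gene-richest mid-size LADs were clusters of related genes. The first, 590 kb on chromosome 1 (247440001 to 248030000), held 21 genes, mostly olfactory receptors such as OR14A2 and OR2C3, with GCSAML and the erythroid gene TRIM58, and was covered at 93.2% in naive. Directly beside it, across a single window, a LAD of 490 kb (248040001 to 248530000) with 16 genes, all olfactory receptors, was covered at 46.9% in 13 naive pieces. Its receptors ranged from 100% in naive for OR2G6 to 39.7% for OR2L3, 26.5% for OR2T6 and 0% for OR2M4, OR2M5, OR2T1, OR2T2, OR2T3 and OR2T4. Neighbouring segments of 1 receptor cluster thus differed widely in naive. Olfactory receptor genes have near-identical copies, so these calls are uncertain.

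On chromosome 4, 790 kb (70010001 to 70800000) with 17 genes was covered at 97.5%. Among the 17 were MUC7 of saliva, ENAM and AMBN of enamel and CSN3 of milk, and also JCHAIN, the immunoglobulin joining chain gene, UTP3 and RUFY3. Another 820 kb on chromosome 4 (99080001 to 99900000) held 12 genes, among them MTTP, a gene of lipoprotein assembly, and the alcohol dehydrogenase genes ADH4 and ADH7, at 98.8%. ADH5, the family member used in most tissues, lay at its edge, with 49.3% of its body in the LAD and 0% in naive. On chromosome 9, 770 kb (21040001 to 21810000) held 17 genes, including IFNE, IFNW1, IFNA2 and KLHL9, at 98.7%. A LAD of 510 kb on chromosome 11 (124080001 to 124590000), also with 12 genes and fully inside a naive LAD, tied with those of 12 genes on chromosomes 4 and 5. On chromosome 5, a LAD of 990 kb (147830001 to 148820000) with 12 genes was covered at 56.6% in 15 naive pieces. There HTR4, a serotonin receptor gene, was covered at 100%, SPINK5, a skin protease inhibitor gene, at 54.5%, FBXO38 at 17.0% and C5orf46 at 0%.

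Gene families differed in how many of their autosomal members lay in mid-size primed LADs, read against the 3.95% of all protein-coding genes. Interferons, the secreted antiviral proteins, had the highest share at 16 of 21 (76.2%), but these share 1 LAD on chromosome 9, so they count as a single place, and all 16 were at 100% in naive. The IFNA genes are near-identical copies, so their calls are uncertain. Olfactory receptors had 78 of 391 (19.9%) in mid-size LADs, of which 63 were in naive LADs and 15 were not. All 15 were among the 44 on chromosome 1, while the 19 on chromosome 11, the 11 on chromosome 7 and the 4 on chromosome 12 were all in naive LADs. ADAM and ADAMTS proteases, which release or trim proteins at the cell surface and in the matrix, had 8 of 39 (20.5%), with ADAM9 at 18.5% and ADAMTS5, an aggrecan-cleaving enzyme, at 40.7% in naive, and ADAM18 at 65.6% and ADAM32 at 98.6%. Of these 8 genes, 6 are on chromosome 8, where they touch 5 mid-size LADs. Taste receptors had 4 of 28 (14.3%), all on chromosome 7 and all at 100%.

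Signalling genes of the WNT, FGF, BMP and TGF-beta pathways had 7 of 66 (10.6%) in mid-size LADs. BMP4 was the 1 of them not in naive LADs, at 3.70% of its body and 100% in primed. CER1, a secreted inhibitor of BMP and Nodal that is also on the list of primed pluripotency genes, was at 50.5%, and WNT16, FGF7, FGF20, SFRP4 and DKK1 were at 100%. Cytochrome P450 genes had 5 of 55 (9.09%), among them CYP2C19, CYP2C18 and CYP2C8, described above, and CYP39A1 at 90.3%. Chemokines had 3 of 41 (7.32%), the neutrophil attractants CXCL1, CXCL6 and CXCL8, which share 1 LAD on chromosome 4, all at 100%. Axon guidance genes had 3 of 40 (7.50%), with EFNB2, an ephrin ligand, at 44.1%, SEMA6D at 94.9% and ROBO1 at 96.6%. Solute carriers had 20 of 344 (5.81%), and all 20 were in naive LADs, the lowest being SLC26A5, the motor protein gene of outer hair cells, at 78.6%. Glutamate and GABA receptors had 2 of 43 (4.65%), among them GRIK1 at 97.5%.

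Genes of the pluripotency lists lay in mid-size LADs at shares of 0% for core, 4.17% for naive and 9.52% for primed pluripotency genes. The share of all protein-coding genes was 3.95%. None of 16 core pluripotency genes was in a primed LAD of any length, where 3279 of the 19122 autosomal protein-coding genes lay. Of 24 naive pluripotency genes, DPPA2 alone was in a mid-size LAD, at 71.3% in naive, and of 21 primed pluripotency genes CER1 and CDH2 (N-cadherin, 97.1%) were. Germline genes had 3 of 37, SOHLH2 at 0% and TDRD6 and SYCP3 at 100%. Genes of the 8-cell embryo had 1 of 47 (H3Y2), Polycomb subunits 1 of 32 (PCGF5) and homeobox regulators 1 of 70 (PROX1), each at 100% in naive. ZNF zinc finger genes had 3 of 498 (0.602%). Potassium channels had 4 of 93, with KCNMB4 at 65.1% and KCNH1 at 99.1%, collagens 2 of 42 with COL25A1 at 98.0%, interleukins 2 of 44 and defensins 2 of 45. Cadherins and protocadherins, calcium channels, serpins, laminins, TRIM genes and UGT enzymes had 1 each. Keratins with keratin-associated proteins (149), histones (82), ribosomal protein genes (77), claudins (22) and sodium channels (14) had 0.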

How the data were processed

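The authors mapped lamina contact in H9 cells by pA-DamID, with 3 LMNB1-dam and 3 Dam-only libraries per state, 12 in all; the sources used here do not say whether the 3 came from separate cultures. Per the submitters' processing notes, BWA, SAMtools 1.10 and SICER were used with hg38. The sources used here do not say which step made the deposited lists, how libraries were combined, or how reads with several matches were assigned. The labels call the lists of each state "final" while the deposited lists analysed here are called "simple", and whether they are the same lists is not known. The 2 deposited files hold interval starts and ends in bases, without counts or scores, so depth is unknown and no test was made.

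Starts were shifted to 1-based positions, and autosomal primed LADs of 100 to 990 kb were kept. Overlap with naive LADs was computed on the 10 kb windows. "Inside" means 1 naive LAD that covers all of the interval and is longer. Edges were compared with the outermost naive LADs that overlap it. A gene is in LADs with at least 50% of its body covered, whatever LADs share it. Intervals are exact binomial (Clopper-Pearson) at 95%. RefSeq gene, promoter (15100 matched, of which 1951 use a start that is not the outer end of the gene) and microRNA tables (GRCh38.p14) gave names and sequences. Of 365 symbols in the gene lists written out by name, 353 matched. Scripts used Python 3.11.15, pandas 2.3.3, numpy 2.4.6, SciPy 1.17.1 and matplotlib 3.10.9, and were tested on simulated intervals.

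The regions named are the 10 least covered in naive, the 10 inside the naive LADs that exceed them most, the 6 farthest from another primed LAD, the 6 with most genes (longer first at ties; a seventh tied) and the 6 longest with the same ends in both lists, with up to 4 genes each by share inside and length. A few of these are not reported here. For each family, up to 4 genes with the lowest naive share are named. Runs of weakly covered LADs (no more than 3000 kb apart), and CSN3, JCHAIN, UTP3, RUFY3, ADH4, ADH5, IFNB1, SPACA1, XRCC4, SCAPER, CYP39A1, OR2M4, OR2M5, OR2T1, OR2T2, OR2T3, OR2T4, FGF20, SFRP4, DKK1 and C5orf46, were chosen after their values were seen. The regions and gene lists were chosen with earlier results of these data known. Alternatives were joining or filtering naive LADs, other length ranges, other shares of coverage, other neighbours and other gene rules.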

Additional observations from a re-analysis of the deposited data

How the results depend on the processing

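Of 31 alternative values, 5 stayed within the interval or limit of the reported one and 26 moved, none with a replicate spread to set them against. The share covered at 50% or more (95.2%) was 98.2% with naive LADs less than 50 kb apart joined, 89.7% without naive LADs under 50 kb, 84.3% with both lists joined and the regions chosen again, 92.0% at 50 to 990 kb and 98.1% at 200 to 990 kb; 76.1% were covered at 90% or more and 99.6% at any overlap. The share inside a larger naive LAD (41.4%) was 67.5% and 87.0% with naive LADs less than 20 and 50 kb apart joined, 63.9% with both lists joined, 47.1% and 35.3% at the wider and narrower length range, and 49.9% with the lists exchanged, an alternative added after seeing the data. Naive edges further out (60.3%) went to 90.1% with joining. Edges less far (16.3%) went to 6.36% with joining and 21.4% without naive LADs under 50 kb, and edges on the same window (23.4%) to 3.54% and 17.6%. Neighbours within 50 kb (99.4%) went to 71.8% with only LADs of 100 kb or longer counted and to 100% at a limit of 100 kb. The share of genes also in naive LADs (89.7%) was 78.1% at 90% of the body, 83.6% by start, 95.2% with joining and 82.9% without naive LADs under 50 kb. The number of LADs under 50% covered (34) was 13 with joining and 73 without naive LADs under 50 kb, also added after seeing the data.

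No paired analysis was possible because each state is 1 merged list, although the labels number 3 libraries per group. Leaving out a library could not be run for the same reason, and depth, which would limit the narrow gaps, is unknown.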

Other observations

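Some genes lay outside naive LADs although the mid-size LAD around them was mostly covered. Of the 756 genes in mid-size LADs, 37 were under 10% covered in naive, against 194 of 3279 in primed LADs of any length. Not all of the 37 lay in mostly covered LADs, since MNAT1, LGR4, SOHLH2 and others lay in the weakly covered LADs described above. CITED2, SAP30 and SF3B5, regulators of transcription and splicing, lay in LADs covered at 96.0%, 92.9% and 63.2%. The mitochondrial genes MRPL50 and TRMT10C lay in LADs covered at 94.8% and 90.9%. All of these but SF3B5 lay at an edge of the LAD, where the naive LAD ended short. The naive-free strip was 10 kb for CITED2 and SAP30, 30 kb for MRPL50 and 40 kb for TRMT10C. The genes named were chosen after their values were seen, and whether their expression differs between the states was not tested.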
